A study of Mus musculus with 21 samples.

Results

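Epithelial-to-mesenchymal transition (EMT) regulators were followed through acquisition and withdrawal of MEK inhibitor resistance in pancreatic cancer cells. The 10 genes, taken by symbol out of 34478 genes in the expression table, were 6 drivers of the mesenchymal state (Snai1, Snai2, Zeb1, Zeb2, Twist1 and Prrx1) and 4 keepers of the epithelial state (Grhl2, Ovol1, Esrp1 and Esrp2). All 10 symbols were found once, and 9 of them passed the filter on low values; Ovol1 did not. The 21 RNA-seq libraries came from 6 primary lines of murine pancreatic ductal adenocarcinoma, numbered #3, #4, #6, #7, #9 and #10. Parental cells had not seen the drug. Resistant cells grew in trametinib, an inhibitor of the kinase MEK, at 100 times their IC50. P12 cells were resistant cells kept for 12 passages without drug, and P5 cells were kept for 5. Parental, resistant and P12 cells were measured in all 6 lines and P5 cells in lines #3, #7 and #9. The free-text labels of 2 of the 3 P5 samples give 12 passages while their titles and group labels give P5, and they were treated as P5 here. The alleles Ptf1awt/Cre and Trp53loxP/loxP were shared by all groups, and Cre, made in Ptf1a-expressing pancreatic cells, deletes Trp53. Each line and state is 1 library, so the lines are the replicates. In lines #3 and #9, where the study sequenced genomes, resistant and P12 cells descend from a clone within the parental culture, so state and clone cannot be told apart in comparisons with parental cells there.

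The EMT programme is run by a small set of transcription factors that silence junction genes such as the E-cadherin gene Cdh1 and switch on matrix and motility genes. Snai1 and Snai2 (Slug) are zinc-finger repressors, Zeb1 and Zeb2 are paired zinc-finger and homeodomain repressors, Twist1 is a basic helix-loop-helix factor and Prrx1 is a paired-type homeodomain factor. On the other side, Grhl2 (a Grainyhead factor) and Ovol1 (a zinc-finger repressor) hold epithelial gene expression, and Esrp1 and Esrp2 are RNA-binding proteins that direct epithelial splicing. In build mm10 (GENCODE M21), Snai1 spans chr2:167538195-167542814, Snai2 chr16:14705852-14709385, Twist1 chr12:33957671-33959829 and Grhl2 chr15:37233036-37363569 on the plus strand, and Prrx1 chr1:163245119-163313710, Ovol1 chr19:5549136-5560646 and Esrp1 chr4:11331933-11386783 on the minus strand. All 10 are protein-coding genes.

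Promoter sequence is shown for Snai1, Zeb2 and Prrx1, the 3 drivers whose levels went together most closely across the samples. Bases upstream of the RefSeq start site are given 5′ to 3′ in build GRCm38.p6, without bases inside annotated exons. Capitals mark CACCTG or CAGGTG, the E-box letters that Snail and Zeb factors bind.
Snai1 (chr2:167537945-167538194, + strand): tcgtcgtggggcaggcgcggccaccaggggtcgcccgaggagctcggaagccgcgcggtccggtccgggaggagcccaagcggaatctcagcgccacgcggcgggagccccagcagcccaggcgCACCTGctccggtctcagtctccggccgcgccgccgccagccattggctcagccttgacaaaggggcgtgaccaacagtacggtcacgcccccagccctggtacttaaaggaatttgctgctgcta
Zeb2 (chr2:45117443-45117692, - strand): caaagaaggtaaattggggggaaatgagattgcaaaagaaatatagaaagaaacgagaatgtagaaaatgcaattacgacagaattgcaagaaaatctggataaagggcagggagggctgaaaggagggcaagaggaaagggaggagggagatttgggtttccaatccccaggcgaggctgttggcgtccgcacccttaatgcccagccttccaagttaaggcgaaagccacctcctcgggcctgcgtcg
Prrx1 (chr1:163313711-163313900, - strand): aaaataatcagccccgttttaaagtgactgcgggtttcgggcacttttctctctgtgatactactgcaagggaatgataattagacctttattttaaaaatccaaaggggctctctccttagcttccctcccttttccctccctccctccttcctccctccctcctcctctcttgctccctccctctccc
The Snai1 sequence holds the E-box letters 126 bases before the start, and the Zeb2 and Prrx1 stretches hold none. On both strands, 17.2% of 32851 RefSeq promoter windows of 250 bases carry these letters. TGANTCA, the AP1 letters, are in 6.75% of the windows, and AACNNGTT, the Grainyhead letters, in 3.64%; neither occurs in the 3 stretches. Zeb2 has 4 RefSeq start sites, and TGANTCA was found at 189 and 132 bases before 1 of the others, in a window that lies in an annotated exon. These matches describe letters only.

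Libraries held an estimated 24.1 to 42.7 M reads (M for mega). The floor, set at 3 reads, was 2.31 to 4.07 normalized counts depending on the library. Normalized counts are estimated counts per gene that the authors normalized with DESeq2. A gene was called at a Benjamini-Hochberg adjusted p below 0.01 over the 19300 tested genes and a log2 fold change past 1 in either direction, on log2(normalized count + 1) in limma. Among 12 genes that report ERK activity, 11 fell in resistant against parental cells, where 2.73% of all tested genes fell, with Dusp6 lower by a log2 fold change of -7.31 (SE 0.75, limma adjusted p = 6.31e-06). The resistant sample of line #7 retained the most, at 681 normalized counts of Dusp6 against 4.49 to 60.7 in the other 5. Trp53 lay between 178 and 475 normalized counts in all 21 samples, and a gene-level value does not test the deletion. Cdh1 was at 26491 to 53229 normalized counts in 5 parental samples and at 816 in line #9. Epcam, a defining epithelial marker, was at or under 3 reads in 20 of 21 samples and reached 3.61 in the other. Summed over 10 ductal markers, Epcam among them, the median was 258195 normalized counts in parental, 62763 in resistant and 52984 in P12 cells. Of these 10 ductal markers, 9 had a median of at least 10 in parental, resistant and P12 cells alike. Summed over 10 fibroblast and pericyte markers, the level was 79.6 to 3538 normalized counts in parental, 1716 to 66688 in resistant and 192 to 27463 in P12 cells, and Lum stayed at or under 3 reads in all parental and P12 samples. Much of the resistant sum was 1 gene, Dcn. Its resistant median was 36728.5 against 38212 for the sum, and its highest value 65968.5 against 66688. In resistant line #9 Dcn held 268. A median of at least 10 was reached by 3 of the 10 fibroblast and pericyte markers in parental, 7 in resistant and 8 in P12 cells. Summed over 6 endothelial markers, the level was 45.1 to 180 in parental, 32.8 to 2757 in resistant and 84.1 to 250 in P12 cells. Among them Tek, an angiopoietin receptor, rose in resistant cells by a log2 fold change of 5.90 (SE 1.14, limma adjusted p = 0.002). Much of the resistant endothelial sum was Tek, with a median of 274 against 404 and a highest value of 2512 against 2757. Emcn was at or under 3 reads in all parental, resistant and P12 samples, and Cdh5 in all resistant samples. The part of other cells in the results was not tested. Fewer cells of a type and less RNA per cell cannot be told apart in these bulk samples.

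Per kilobase of exon, the order of the members differed between states. Exon length is the union of all annotated exons of a gene, from 1.62 kb for Snai1 to 19.9 kb for Zeb2. Which transcripts the cells made was not measured, so ranks between genes and the Zeb2 share below depend on this choice. In parental cells the median normalized count per kb was 504 for Esrp2, 207 for Twist1, 163 for Zeb1, 51.9 for Snai2, 13.1 for Snai1, 11.8 for Zeb2, 3.53 for Esrp1, 2.53 for Prrx1 and 0.888 for Grhl2. In resistant cells Zeb1 led at 143, followed by Esrp2 at 98.2, Snai2 at 88.0, Prrx1 at 67.3, Twist1 at 56.1, Zeb2 at 48.1 and Snai1 at 37.01. After 12 passages without drug the order was Snai2 at 253, Prrx1 at 201, Zeb1 at 185, Twist1 at 176, Snai1 at 161, Esrp2 at 102 and Zeb2 at 58.6. The ranges over lines of neighbours in these orders overlapped, except that every driver lay above Grhl2 and Esrp1 in resistant cells and Zeb2 lay above Grhl2 in P12 cells. Levels by state and line are drawn for all 10 members.

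**Figure D1:**
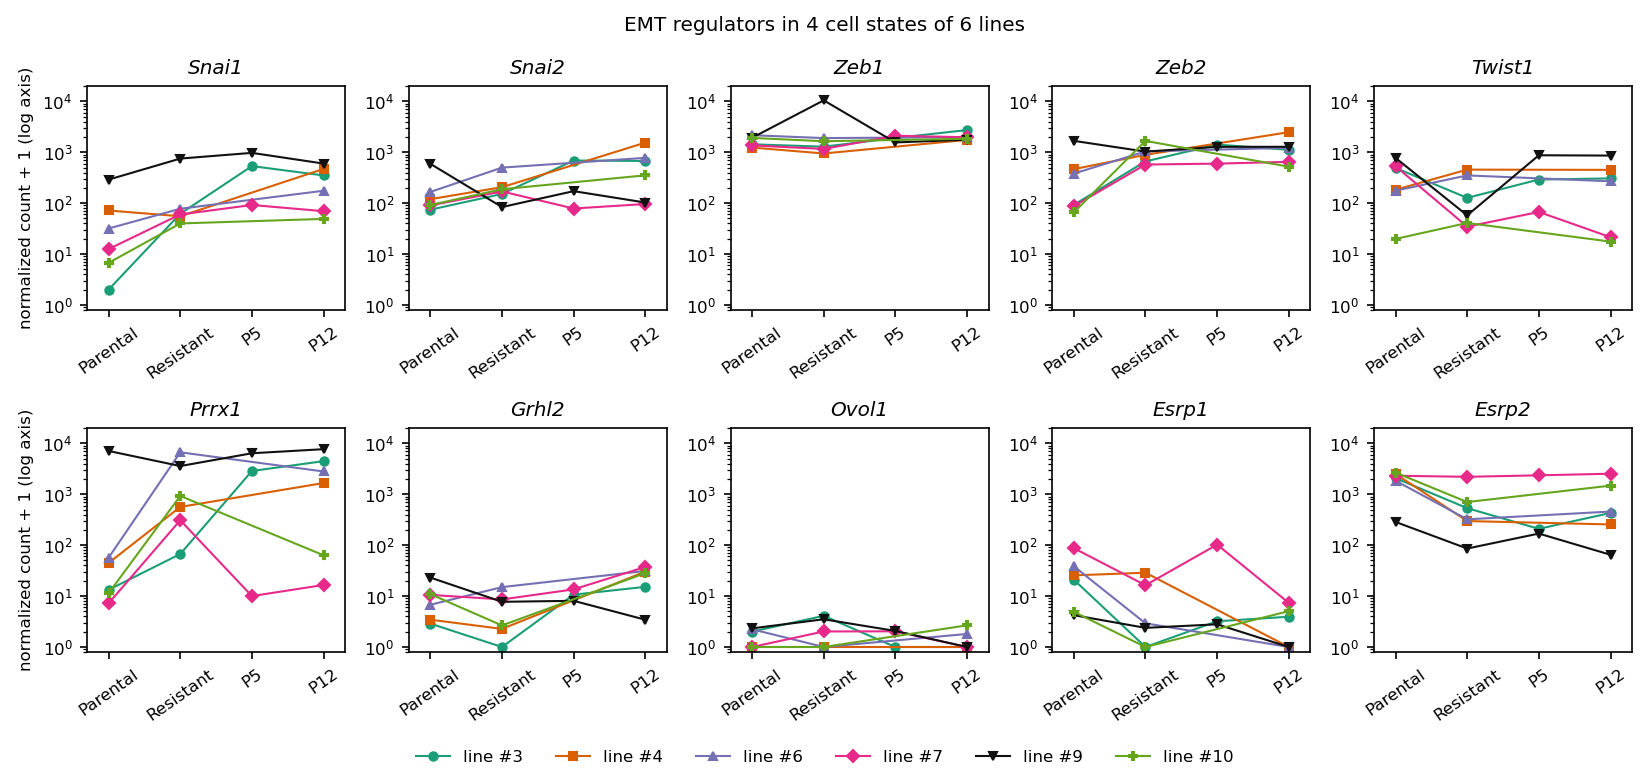
Normalized count + 1 (log axis) of each of the 10 regulators in parental, resistant, P5 and P12 cells, 1 line per cell line and 1 point per sample. Zeb1 lay within 945 to 2726 in 20 of 21 samples, Prrx1 spanned 6.20 to 7675, and Ovol1 did not exceed 3.09.

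The first comparison asked which regulators differed once cells were resistant. By the call rule given above 0 of 9 tested members changed between resistant and parental cells, against 5.3% of all tested genes, while 3 members (Zeb2, Esrp1 and Esrp2) had an unadjusted p under 0.05. When the fit also held a term for the line (a block), 1 of 9 fell, Esrp2, against 10.5% of all genes. With the block and an adjusted p below 0.05, a pair of choices made after seeing the data, 5 of 9 were called (Snai1, Zeb2 and Prrx1 higher, Esrp1 and Esrp2 lower), against 17.1%. Without line #9, 1 of 9 rose, Zeb2, against 6.42%. The median log2 fold change was 1.20 for the 6 drivers and -1.88 for the 3 tested keepers, with -0.0049 over all tested genes. With 3 keepers the median is the value of Esrp2 alone. The other keepers were low in level, with Esrp1 at -2.25 and Grhl2 at -0.82. Groups overlapped for all 9 members, where 5.99% of tested genes had no overlap.

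Zeb2 had the lowest adjusted p of the drivers. The gene lies on chromosome 2 (44983632 to 45117395, minus strand, mm10). Parental cells held 91.4, 465, 380, 86.3, 1673 and 65.0 normalized counts in lines #3, #4, #6, #7, #9 and #10. Resistant cells held 660, 889, 1036, 573, 1028 and 1669 in the same order. All lines but #9 were higher in the resistant state, and parental line #9, at 1673, lay above every resistant sample. The log2 fold change was 1.98 (SE 0.62, n = 6 lines per state, limma adjusted p = 0.0367, 0.0129 with the block). Without line #9 the difference was 2.52 (SE 0.57, limma adjusted p = 0.00773), and over all alternatives the adjusted p ran from 0.00262 to 0.167. P12 cells held 1116, 2476, 1221, 647, 1279 and 520, all above the parental value of their line except in line #9. Zeb2os, an antisense RNA within the locus, was at or under 3 reads in 5 of 6 parental samples and at 7.54 to 33.7 in 5 of 6 resistant samples. The library kit keeps strand but the setting used in counting is not given in the sources used here, so the pair may share reads. Genes on the opposite strand also overlap Zeb1, Prrx1, Grhl2, Ovol1 and Esrp1, and the same limit holds for their values.

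Zeb1, the paralog of Zeb2 and likewise a repressor of epithelial genes, had the most even level. Parental samples held 1431, 1235, 2159, 1362, 1921 and 1910 normalized counts, in the line order above. Resistant samples held 1285, 945, 1896, 1159, 10453 and 1644. The resistant sample of line #9 stood apart from all others, and the other 5 lines were each slightly lower than their parental cells. Its log2 fold change was 0.21 (SE 0.40, limma adjusted p = 0.775), and without line #9 it was -0.24 (SE 0.21, limma adjusted p = 0.489). The share of Zeb2 in the Zeb1 and Zeb2 RNA, per kb of exon, was 3.18, 16.2, 8.30, 3.16, 31.0 and 1.72% in parental cells. In resistant cells it was 20.9, 32.6, 22.0, 20.3, 4.82 and 34.3%, so that line #9 went the other way from the other 5 lines. P12 shares were 17.4, 42.2, 24.1, 14.5, 27.2 and 12.7%, and P5 shares in lines #3, #7 and #9 were 27.6, 12.7 and 29.6%.

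**Figure D2:**
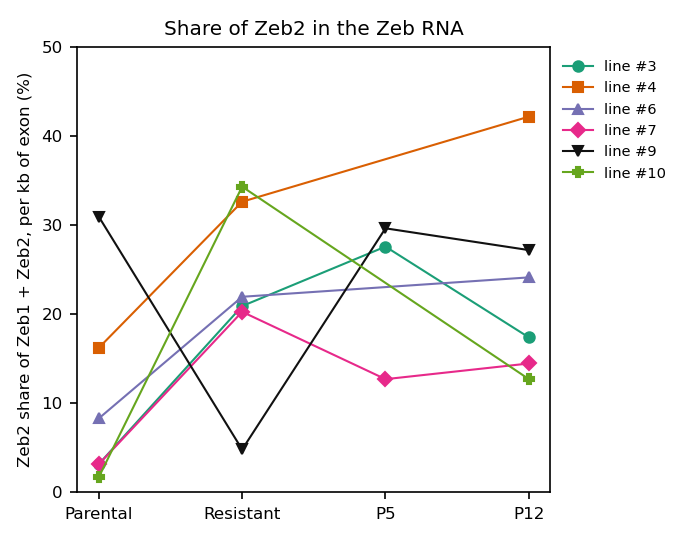
Zeb2 as a share of Zeb1 plus Zeb2 RNA (percent, each per kb of the union of its annotated exons) by state, 1 line per cell line. The median was 5.74% in parental and 21.4% in resistant samples, and line #9 had 31.0% and 4.82%.

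Snai1, a direct repressor of Cdh1, was low in parental cells at 1.00, 70.8, 30.8, 11.5, 289 and 5.73 normalized counts. Resistant cells held 60.95, 54.3, 76.7, 59.0, 750 and 39.0. Line #3 was at or under 3 reads before treatment, and line #9 was the highest in both states. The log2 fold change of 2.01 (SE 1.04) did not pass the test (limma adjusted p = 0.207, 0.0445 with the block), with 5 of 6 lines higher, as were 23.9% of all tested genes in all or all but 1 line. It was 1.42 without line #3, 1.39 without the resistant sample of line #9 and 2.76 without the parental one. After withdrawal the levels were 349, 469, 174, 68.6, 598 and 48.1 in P12 cells. Snai2 held 73.4, 119, 165, 89.2, 592 and 90.9 in parental and 151, 205, 498, 169, 82.8 and 187 in resistant cells. All lines but #9 were higher when resistant, and the log2 fold change was 0.42 (SE 0.70, limma adjusted p = 0.742), or 1.07 without line #9.

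Prrx1, a homeodomain factor of mesenchymal tissue, had the widest range of the members. Parental cells held 12.3, 43.6, 55.6, 6.20, 7078 and 10.4 normalized counts, and line #9 was far above the rest. Resistant cells held 66.02, 562, 6664, 308, 3577 and 926. The 5 lines other than #9 were all higher in the resistant state. Its log2 fold change was 3.94 (SE 1.91, limma adjusted p = 0.177, 0.0305 with the block), the largest of the members and not called. It was 5.36 without the parental sample of line #9 and 3.36 without line #6. Twist1, known from mesoderm development, held 491, 182, 175, 530, 773 and 18.8 in parental and 126, 455, 350, 33.6, 56.5 and 39.9 in resistant cells. Lines #4, #6 and #10 were higher and lines #3, #7 and #9 lower, with a log2 fold change of -1.05 (SE 1.07, limma adjusted p = 0.564).

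Esrp2, which steers exon choice in epithelia, was the keeper with the highest level. The gene lies on chromosome 8 (106130319 to 106136974, minus strand, mm10). Parental cells held 2070, 2508, 1841, 2309, 285 and 2656 normalized counts. Resistant cells held 532, 296, 321, 2200, 84.8 and 701. Each of the 6 lines was lower, line #7 by only 0.07 on the log2 scale and line #4 by 3.08. Between these states, 18.5% of all tested genes had the same direction in every line. The log2 fold change was -1.88 (SE 0.89, limma adjusted p = 0.167), and in the blocked fit it fell by 1.88 with SE 0.41 (limma adjusted p = 0.00416); across alternatives the adjusted p ran from 0.00416 to 0.36. Without the resistant sample of line #9 the difference was -1.41, and without the parental one -2.38. 1810019D21Rik, on the other strand of the same locus, ran with Esrp2 at Pearson r = 0.95 over 21 samples. Smim6, which is not among the genes overlapping Esrp2, ran with Esrp2 at 0.96. The strand setting used in counting is not given, so reads of Esrp2 and 1810019D21Rik may not be separable. Nfatc3 overlaps Esrp2 as well and stayed between 1839 and 4504.

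Esrp1, the paralog, was low: parental cells held 20.01, 24.5, 37.5, 86.3, 3.22 and 3.91 normalized counts and resistant cells 0, 27.8, 1.92, 15.3, 1.38 and 0. It was at or under 3 reads in 4 of 6 resistant samples and in 10 of all 21. The log2 fold change was -2.25 (SE 1.05, limma adjusted p = 0.161, 0.0491 with the block). Grhl2 was near the floor, at 1.88, 2.44, 5.75, 9.55, 22.1 and 9.91 in parental and 0, 1.27, 14.0, 7.59, 6.72 and 1.65 in resistant cells. Its log2 fold change was -0.82 (SE 0.70, limma adjusted p = 0.481). Ovol1 was at or under 3 reads in 21 of 21 samples and was not tested.

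**Figure D3:**
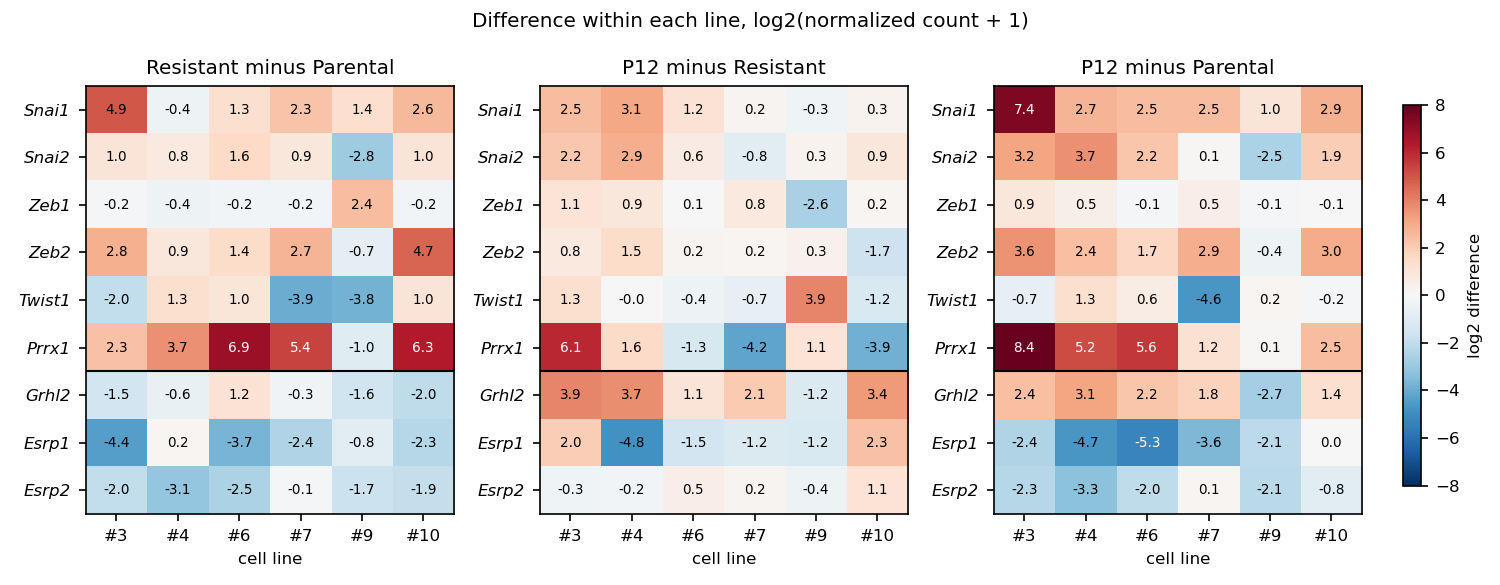
Log2 difference of normalized count + 1 within each cell line for 3 comparisons, members in rows and lines in columns, with drivers above and keepers below the rule. Red is higher and blue lower in the first-named state. Esrp2 is lower in all 6 lines for resistant minus parental, by 0.07 to 3.08. For that comparison 18.5% of all tested genes have the same direction in every line.

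**Figure D4:**
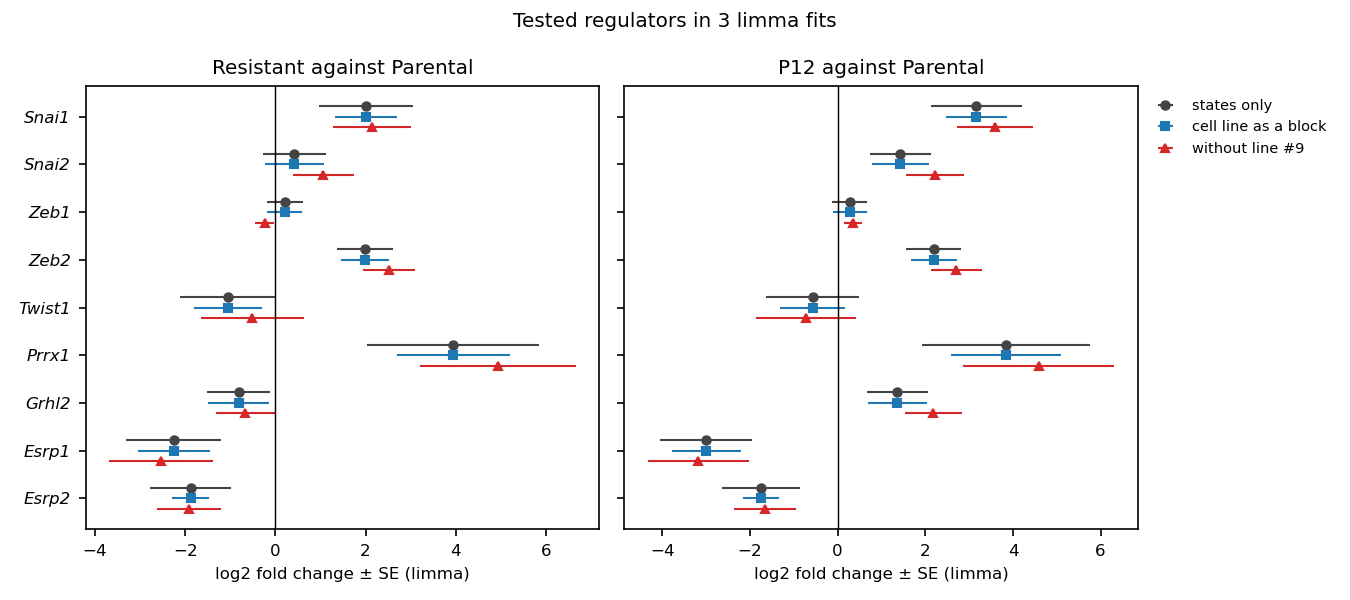
Log2 fold change ± SE of the 9 tested members from 3 limma fits (states only, line term added, line #9 left out), for resistant and P12 cells against parental cells. The point of Esrp2 is at -1.88 in resistant cells in the first and second fits with SE 0.89 and 0.41, and Zeb2 reaches 2.52 without line #9.

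The second comparison asked how the regulators differed after drug withdrawal. Between P12 and resistant cells 0 of 9 members changed in limma, against 2.13% of all tested genes, and 1 (Grhl2) had an unadjusted p under 0.05. With the block and an adjusted p below 0.05, 1 of 9 was called, Grhl2, against 8.8%. Grhl2 held 14.2, 29.2, 30.2, 36.3, 2.43 and 27.3 normalized counts in P12 cells, higher than in resistant cells in all lines but #9. The log2 fold change was 2.18 (SE 0.70, limma adjusted p = 0.072, 0.0445 with the block and 0.0157 without line #9). Esrp2 held 428, 254, 456, 2531, 63.8 and 1475 in P12 cells, a log2 fold change from resistant cells of 0.14 (SE 0.89, limma adjusted p = 0.958). Esrp1 held 2.93, 0, 0, 6.35, 0 and 4.05 in P12 cells. Twist1 held 305, 450, 267, 20.5, 859 and 16.6, Prrx1 held 4466, 1660, 2797, 15.5, 7675 and 62.3, and Zeb1 held 2726, 1747, 1976, 1969, 1762 and 1837. Prrx1 was lower than in resistant cells in lines #6, #7 and #10 and higher in lines #3, #4 and #9. Snai2 at 673, 1543, 775, 95.2, 102 and 351 was higher than in resistant cells in 5 of 6 lines, with a log2 fold change of 1.01 (SE 0.70, limma adjusted p = 0.467).

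The third comparison set P12 cells against the same parental samples as the first. Here too 0 of 9 members changed, against 0.114% of all tested genes, with 3 (Snai1, Zeb2 and Esrp1) at an unadjusted limma p under 0.05. With the block and an adjusted p below 0.05, 4 of 9 were called (Snai1 and Zeb2 higher, Esrp1 and Esrp2 lower), against 3.81%. Snai1 was higher in P12 than in parental cells in 6 of 6 lines, by a log2 fold change of 3.17 (SE 1.04, limma adjusted p = 0.153, 0.0222 with the block). It was 2.31 without line #3, whose parental sample was at or under 3 reads, and 3.91 without the parental sample of line #9. Prrx1 was also higher in 6 of 6 lines, at 3.84 (SE 1.91, limma adjusted p = 0.347), with 2.93 without line #3 and 5.26 without the parental sample of line #9. A same-direction difference in every line held for 13.4% of all tested genes. Zeb2 differed by 2.20 (SE 0.62, limma adjusted p = 0.111). Leaving out parental line #9 alone gave 2.77 (limma adjusted p = 0.0092). That sample had the highest parental value, at 1673 normalized counts, so its removal raises the difference by construction. Over all alternatives the limma adjusted p ran from 0.0092 to 0.381. Esrp2 differed by -1.74 (SE 0.89, limma adjusted p = 0.361, 0.0294 with the block) and Esrp1 by -2.99 (SE 1.05, limma adjusted p = 0.184, 0.0419 with the block). The 6 drivers had a median log2 fold change of 1.81 and the 3 tested keepers of -1.74, against 0.03 over all tested genes. The keeper median is again the value of Esrp2. Not every member followed the median of its list. The keeper Grhl2, near the floor, was higher than in parental cells in 5 of 6 lines, at 1.36 (SE 0.70, limma adjusted p = 0.361). Among the drivers, Twist1 was at -0.57 (SE 1.07) and Zeb1 at 0.28 (SE 0.40).

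P5 cells were measured in 3 lines. Of 9 members, 0 changed in limma against resistant cells (0.378% of all tested genes), parental cells (0.0259%) or P12 cells (0%), and 0, 2 (Snai1 and Zeb2) and 0 had an unadjusted p under 0.05. Snai1 held 533, 91.0 and 971 normalized counts in lines #3, #7 and #9, Zeb2 held 1412, 597 and 1275, and Snai2 held 687, 77.5 and 171. All 3 Snai1 values were above the parental and resistant values of the same line. Prrx1 held 2861, 9.00 and 6382, Esrp2 held 208, 2352 and 168, and Esrp1 held 2.20, 101 and 1.79. Line #7 was apart from the other 2 lines in each of these 3 genes. Twist1 held 290, 66.2 and 871, Zeb1 held 1907, 2109 and 1558, and Grhl2 held 9.67, 12.5 and 7.07.

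Across the 21 samples Prrx1 and Esrp2 went opposite ways at Pearson r = -0.88, and at -0.76 after removing each line's mean. Snai1 and Zeb2 went together at 0.84 (0.84 after removing line means), Zeb2 and Prrx1 at 0.80 and Snai1 and Prrx1 at 0.79. Esrp2 and Cdh1, the E-cadherin gene, went together at 0.86 (0.74). Zeb1 with Zeb2 had r = 0.18. Not every driver and keeper went opposite ways. The keeper Grhl2, near the floor, went with Snai2 at 0.48 (0.74) and with Snai1 at 0.25 (0.46). With Cdh1, r was -0.70 (-0.44) for Prrx1, -0.58 (-0.40) for Zeb2 and -0.57 (-0.28) for Snai1. For Twist1 it was -0.38 (0.11), for Zeb1 -0.22 (-0.03) and for Snai2 -0.17 (-0.05). These values describe 21 samples that share 6 lines and 4 states. Cdh1 differed by -7.11 between resistant and parental cells (SE 1.92, limma adjusted p = 0.0173, 0.000175 with the block). Lines #3, #4, #6 and #10 held 27906, 36777, 26491 and 32192 normalized counts in parental cells. They held 73.1, 4.01, 43.7 and 2120 in resistant and 2808, 992, 1516 and 14006 in P12 cells. In line #7 Cdh1 held 53229, 16401, 17116 and 18598 normalized counts in parental, resistant, P5 and P12 cells, while in line #9 it held 816, 8.68, 46.2 and 44.0. Esrp2 lay at 2200 to 2531 in the 4 states of line #7 and at 63.8 to 285 in those of line #9. Among the 6 resistant samples line #7 also had the most Dusp6, and the part of residual ERK output in its Esrp2 level was not tested.

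**Figure D5:**
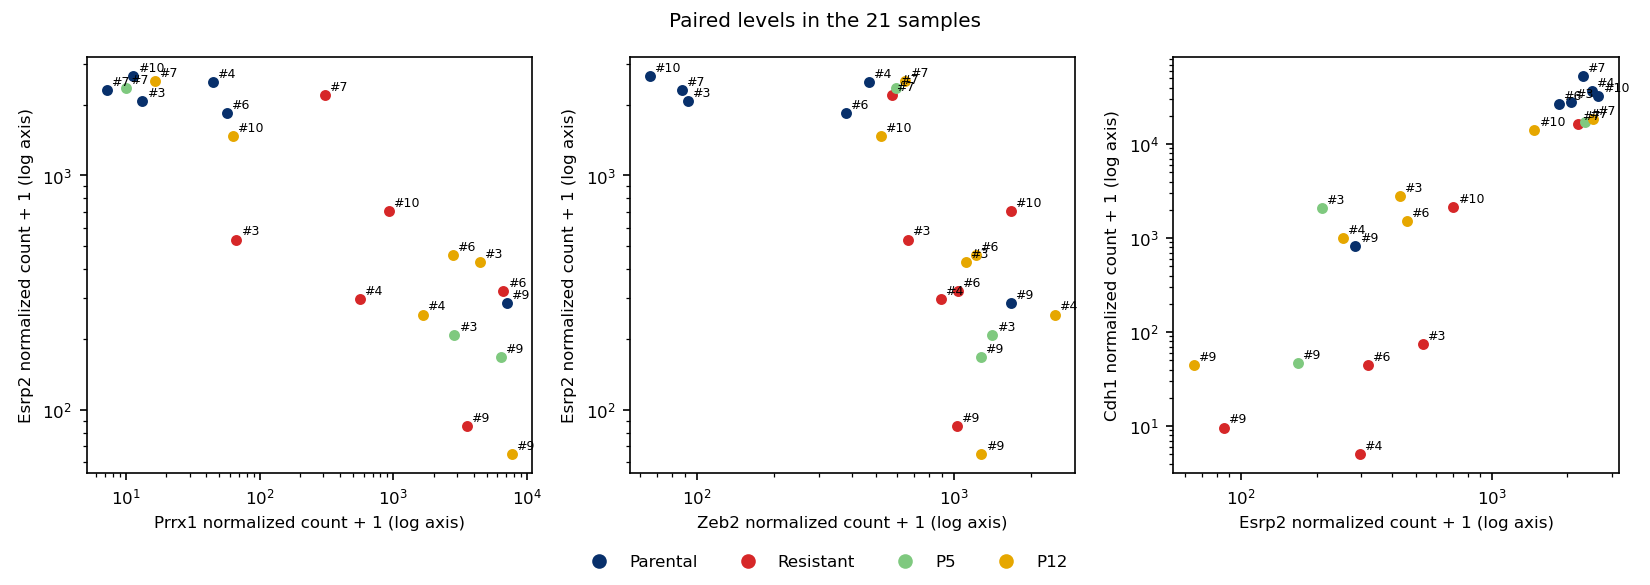
Normalized count + 1 on log axes for 3 pairs of genes, 1 point per sample, coloured by state and labelled by cell line. The sample with the highest Prrx1, P12 line #9 at 7675, has Esrp2 at 63.8, and the 4 samples of line #7 have Esrp2 at 2200 to 2531.

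The genes most like each member over the 21 samples, by Pearson correlation of log2 values, were Pcdh18 (r = 0.89) for Zeb2, Pdgfrb (0.89) for Snai1, Hgf (0.83) for Snai2, Gm15867 (0.93) for Prrx1, Amotl1 (0.77) for Twist1, Blvrb (0.72) for Grhl2, Eepd1 (0.83) for Esrp1 and Smim6 (0.96) for Esrp2. For Zeb1 it was AC153532.1 (0.89), with Mmp12 (0.87) and Muc19 (0.86) next. Pdgfrb is a receptor tyrosine kinase of pericytes and Hgf is the ligand of Met.

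Around the members, other genes of the programme were read from lists. Of 13 further EMT-driving factors, 0 rose and 2 fell in resistant cells (2.57% of all tested genes rose and 2.73% fell): Hmga2, an architectural chromatin protein, at -7.07 (SE 0.96, limma adjusted p = 0.000111), and Sox9, a ductal progenitor factor, at -3.06 (SE 0.62, limma adjusted p = 0.0029). Both rose in P12 against resistant cells, by 6.88 (SE 0.96, limma adjusted p = 0.00031) and 3.84 (SE 0.62, limma adjusted p = 0.00117). Of 15 further epithelial-keeping factors 0 rose and 4 fell, among them Cdx2 at -8.99 and Foxa3 at -4.52, with medians of -3.01 for the list and -0.0049 for all genes. Of 24 epithelial effectors 0 rose and 6 fell, including the tight junction genes Cldn4 at -6.46, Cldn7 at -6.00 and Ocln at -6.76. Of 22 mesenchymal effectors 2 rose and 0 fell, Cdh2 (N-cadherin) at 1.77 and Sparc, a matrix glycoprotein, at 5.21. Vim, the vimentin gene and a fixed anchor, was at -0.61 (SE 0.38, limma adjusted p = 0.304) and not called. It was lower in resistant than in parental cells in all lines but #7. The fibroblast and pericyte sum given above, with much of it from Dcn, had a higher median in resistant than in parental cells. So had the endothelial sum, with much of it from Tek. The sum of 7 leukocyte markers was also higher, at a median of 321 against 207. The sums of ductal and of 7 acinar markers had lower medians. The part of the cells that these marker lists stand for was not tested. With the block the counts of the factor and effector lists became 3 of 13 and 6 of 15 lower, 13 of 24 lower and 8 of 22 higher. With the same block 5.6% of all tested genes were lower and 4.85% higher. Of 12 splicing regulators 0 changed, with 4 at an unadjusted limma p under 0.05, and 1 rose with the block. Of 18 genes of the TGF-beta and Fosl1 inputs, 2 rose and 1 fell. Fosl1, an AP1 subunit, fell by 5.88 on the log2 scale (SE 0.97, limma adjusted p = 0.000601), and resistant line #7 held 1659 normalized counts against 2.07 to 47.8 in the other lines. Tgfb2, a TGF-beta ligand, rose by 5.16 (SE 0.99, limma adjusted p = 0.00189). In P12 cells Cldn4 was still lower than in parental cells at -5.94 (SE 1.01, limma adjusted p = 0.00931).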

How the data were processed

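RNA of 21 cell samples was sequenced after TruSeq stranded mRNA preparation, on 2 sequencer models that the sources do not assign to samples, so no within-sequencer comparison was made. Per the labels' processing notes and the study's methods the authors used CASAVA 2.17 or bcl2fastq 2.19, Salmon 0.12 and DESeq2 1.18 with build mm10. The values the authors deposited are a signal per gene, estimated counts that the authors normalized with DESeq2. Members and lists, recalled from general knowledge, were chosen with earlier results of these data known.

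Values were analysed as log2(value + 1). Genes with at least 10 in at least 3 samples (19300 of 34478) were fitted in limma 3.58.1 (R 4.3.3; lmFit, eBayes with trend) with the 4 states in 1 fit and no block. Calls needed a Benjamini-Hochberg adjusted p below 0.01 with a log2 change past 1. The labels name the cell line, which pairs samples: residuals of the same line correlated at a mean of 0.40 (27 pairs) against -0.08 between lines (135 pairs). Depth was estimated from the most frequent low value, taken as 1 read. Whole reads could not be recovered, since only 28.8 to 58.0% of a sample's values under 100 reads lay within 0.02 of a whole read. P-values of the fit without a block measure the spread between lines, 1 library each, and leave this pairing out. Those with the block measure how far the differences between states vary from line to line. Named list genes are the 3 called genes with the largest change, plus fixed anchors. Coordinates and exon lengths are from GENCODE M21 (mm10), and promoters from RefSeq (GRCm38.p6). On simulated data, 60 of 104 genes changed by a log2 of 2 and 76 of 96 changed by 4 were called for resistant against parental cells, with 2 of 19100 unchanged genes. The simulated noise was independent between samples, so it held no pairing by line, and only resistant samples were changed. These rates hold for that setting only. Alternatives were pseudocounts of 0.5 and 8, other filters and scaling, no trend, 2-state fits, the block and leaving out lines. An allele shared by all groups and 1 listed gene are not reported here.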

Additional observations from a re-analysis of the deposited data

Results flagged for a closer look

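In 30 groups of 6 samples of one state, 5 single values lay apart from the others of their state by a Dixon test, where chance marks about 5% of groups. Snai1 in resistant line #9 was 750 normalized counts against 39.0 to 76.7 in the other 5 lines. Zeb1 in resistant line #9 was 10453 against 945 to 1896. Zeb1 in P12 line #3 was 2726 against 1747 to 1976. Prrx1 in parental line #9 was 7078 against 6.20 to 55.6. Esrp2 in parental line #9 was 285 against 1841 to 2656. Of these 5 values 4 came from line #9.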

How the results depend on the processing

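For resistant against parental cells the count went from 0 to 1 with the replicate block (Esrp2) and at an adjusted p below 0.05 (Zeb2, against 11.3% of all genes), and from 0 to 1 when libraries of line #9 were left out (Zeb2); leaving out samples gave 0 to 1 there and for P12 against parental cells. With the replicate block and an adjusted p below 0.05 together, chosen after seeing the data, the counts were 5 for resistant against parental, 4 for P12 against parental and 1 for P12 against resistant cells. The other 190 counts and medians kept their direction and size class. Of the member fold changes, 858 kept direction and side of the threshold, 4 newly passed it and 44 changed sign, none of which passed the threshold. With upper-quartile rescaling, which shifted the median of all genes in P5 against resistant cells from 0.03 to 0.13, Zeb1 was 0.0653. With the block alone, Twist1 was -0.0848 in P5 against parental cells, and in P12 against P5 cells Zeb2 was -0.086 and Esrp2 -0.0808. With the block and only the compared states, chosen after seeing the data, P5 against resistant cells gave Prrx1 0.43 and Esrp2 -0.0914, P5 against parental cells Twist1 -1.19, and P12 against P5 cells Snai2 -0.16, Zeb2 -0.0724 and Esrp2 -0.0806. The other sign changes came from leaving out 1 line or 1 library, the resistant library of line #9 also chosen after seeing the data, and the log2 fold changes then ranged as follows. Resistant against parental cells gave Zeb1 -0.28 to 0.33. P12 against resistant cells gave Zeb1 -0.14 to 0.59, Zeb2 -0.0392 to 0.59, Twist1 -0.21 to 0.82, Prrx1 -1.34 to 0.72, Esrp1 -1.36 to 0.0731, Esrp2 -0.33 to 0.25. P12 against parental cells gave Twist1 -0.95 to 0.24. P5 against resistant cells gave Snai2 -0.74 to 0.86, Zeb1 -0.28 to 0.58, Zeb2 -0.17 to 0.41, Prrx1 -2.37 to 2.15, Esrp2 -0.74 to 0.59. P5 against parental cells gave Snai2 -0.44 to 1.1802, Twist1 -0.51 to 1.41. P12 against P5 cells gave Zeb2 -0.19 to 0.27, Prrx1 -1.43 to 1.46 and Esrp2 -0.36 to 0.87. The causes were not tested. Grhl2, Esrp1 and Ovol1 lie near the floor, so their log2 values depend on a few reads.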

Other observations

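Zeb1 in the resistant sample of line #9 lay 1.94 log2 units above the next highest of the 21 samples, and 107 of 19300 tested genes had a gap at least as large there. Within 2 megabases of Zeb1, 11 tested genes differed between resistant and parental cells of line #9 by a median log2 difference of 0.13 (range -0.62 to 2.69), against 2.44 for Zeb1.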
